A study of Sus scrofa with 9 samples.

Results

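The genes described here mark spermatogonial stem cells or steer their differentiation, and 10 of them were listed, namely UCHL1, ZBTB16, GFRA1, KIT, STRA8, NANOS2, NANOS3, SALL4, ID4 and DMRT1. A probe was assigned to a gene when the array annotation gave the symbol as its gene name or, in parentheses, in its description, with control and antisense probes left out. Of the 60889 non-control probes, 14 were found in this way for 5 of the 10 genes (4 for KIT, 4 for ID4, 3 for UCHL1, 2 for SALL4 and 1 for GFRA1). No probe carried the names of ZBTB16, STRA8, NANOS2 or NANOS3, which were not analysed here. DMRT1 is spelled with a hyphen on the array and was missed by this rule. Its 4 probes, matched through their RefSeq accession, and 1 further SALL4 probe with a lower-case symbol are described beside the others and enter no count of the listed genes unless stated.

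Testicular biopsies of pigs (Sus scrofa) had been profiled on 9 one-colour Agilent arrays, 3 for each of 3 groups. The control arrays came from fertile boars with normal semen and a normal karyotype (2n=38,XY). The methods give 3 boars, while the paper's results speak of a pool of control boars. Which boar or boars each array holds is not stated in the sources used here. The oligospermic group, with few spermatozoa in the ejaculate, was 1 boar with a normal karyotype (2n=38,XY). The t(1;14) group was 1 Landrace × Duroc crossbred boar, oligo-astheno-teratospermic (few, poorly motile and malformed spermatozoa), that carried the balanced reciprocal translocation trcp(1;14). Ages were not given, and no group received an agent.

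Since the oligospermic and t(1;14) arrays are separate biopsies of 1 boar each, the p-values measure the spread between arrays and not between animals, and karyotype and individual boar cannot be told apart. Signals are given as normalized log2 signal, on which 1 unit is a doubling, and levels are not compared between probes, which bind with different strength. Between 37087 and 40632 probes per array were well above background, and arrays of the same group correlated at 0.976 to 0.996, against 0.926 to 0.949 between control and t(1;14) arrays. The testis was recognisable in every array, with the spermatid gene TNP1, the Leydig cell hormone INSL3 and the Sertoli cell junction gene CLDN11 well above background on all 9. In such bulk tissue, fewer cells of a type and less RNA per cell cannot be told apart.

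In the testis, sperm production is sustained by a small pool of undifferentiated spermatogonia along the wall of the seminiferous tubule. GDNF from Sertoli cells acts through the receptor pair GFRA1 and RET to maintain these cells, while ZBTB16, SALL4, ID4 and NANOS2 are regulators or markers of the undifferentiated state, and UCHL1, a ubiquitin hydrolase, is widely used to mark spermatogonia in pigs. Retinoic acid and KIT ligand then drive them into differentiation, when the receptor tyrosine kinase KIT appears, and retinoic acid later induces STRA8 at the entry into meiosis. DMRT1 acts in both Sertoli cells and spermatogonia, where it restrains the entry into meiosis. Several of these genes are also read in other cells of a biopsy, KIT in Leydig and mast cells, UCHL1 in nerve, and ID4 in Sertoli cells.

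The probes are oligonucleotides of 60 bases. They are shown 5′ to 3′ as in the scanner files, and their place in the transcript is not given, so that for probes that may lie outside the coding part only the first 30 bases are printed. The first set shows why the KIT probes are not 4 independent readings, since probes 3 and 4 share the 57 bases in capitals.
KIT probe 1, first 30 bases: tcatgttcacatatttgaggggggaaaacc
KIT probe 3: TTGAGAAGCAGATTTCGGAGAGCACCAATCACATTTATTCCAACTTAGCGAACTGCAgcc
KIT probe 4: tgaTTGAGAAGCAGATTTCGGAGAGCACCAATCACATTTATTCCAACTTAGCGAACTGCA

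The second set holds probes of genes of the undifferentiated state, with the main probes of SALL4 and ID4, an ID4 probe of another sequence, and the GFRA1 and SALL4 probes that were not well above background on any array. UCHL1 probes 1 and 2 have the same sequence and are 2 spots of 1 oligonucleotide, and the sequence of SALL4 probes 2 and 3 is present on the array under the symbol in capitals and again in lower case.
UCHL1 probes 1 and 2, first 30 bases: atctaatgctttaacggctactttggtttg
UCHL1 probe 3: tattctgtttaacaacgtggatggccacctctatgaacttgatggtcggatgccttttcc
GFRA1 probe 1: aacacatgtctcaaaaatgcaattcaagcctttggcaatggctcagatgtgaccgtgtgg
SALL4 probe 1, first 30 bases: gacaccaccagaggctttctcacttgttaa
SALL4 probes 2 and 3: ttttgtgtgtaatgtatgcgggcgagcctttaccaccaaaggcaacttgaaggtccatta
ID4 probe 1, first 30 bases: atagatgattataagggggcaggacacttt
ID4 probe 3: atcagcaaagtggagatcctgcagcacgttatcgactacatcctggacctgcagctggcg

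The third set shows the DMRT1 probes, which differed in direction.
DMRT1 probe 1, first 30 bases: ggcgtacatacgtacttccttatgtaacag
DMRT1 probe 3: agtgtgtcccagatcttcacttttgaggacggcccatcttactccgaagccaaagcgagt
DMRT1 probe 4: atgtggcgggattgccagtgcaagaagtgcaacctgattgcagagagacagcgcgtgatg

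Among the genes of the undifferentiated state, UCHL1 was higher in the t(1;14) testis than in both other groups, whereas SALL4 and ID4 did not pass the test and GFRA1 was not measurable. For each gene the probe with the highest mean signal among those that passed the filter on dim probes is its main probe. The main UCHL1 probe read 11.58, 11.11 and 11.10 in control arrays 1 to 3, 11.60, 11.54 and 11.13 in oligospermic arrays 1 to 3, and 12.12, 12.23 and 12.06 in t(1;14) arrays 1 to 3. The 3 t(1;14) arrays lay above the other 6, and control and oligospermic arrays overlapped. Of all 41105 probes tested, 35.4% were higher without overlap in t(1;14) than in control arrays. Group means were 11.27 ± 0.28, 11.42 ± 0.26 and 12.14 ± 0.09 (SD, n = 3 arrays each, as in all groups below).

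The log2 difference between the t(1;14) and control groups was 0.87 (SE 0.18, 95% interval 0.47 to 1.27), a 1.83-fold higher signal, with an adjusted p of 0.00341 in limma. Against the oligospermic group it was 0.71 (SE 0.18, adjusted p = 0.00805 in limma), and between the oligospermic and control groups 0.16 (95% interval -0.25 to 0.56, adjusted p = 0.799). Within slides, each of which held 1 array of every group, the UCHL1 difference from control was 0.65, 0.95 and 1.02 on slides 1, 2 and 3. Probe 2, the second spot of the same oligonucleotide, gave 0.84 against control (adjusted p = 0.00401) and 0.66 against the oligospermic group, where its adjusted p of 0.0119 missed the limit of 0.01. The log2 signals of the pair differed by 0.027 to 0.33 on the same array. Probe 3, of another sequence, gave 0.40 against control (adjusted p = 0.138) and 0.25 against the oligospermic group (adjusted p = 0.322), so the higher reading passed the test with 1 of the 2 UCHL1 sequences.

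The UCHL1 call against control was lost without any one of 5 arrays. Its adjusted p was 0.0124 without control array 2 and without control array 3, and 0.0123, 0.0141 and 0.0108 without t(1;14) arrays 1, 2 and 3. Against the oligospermic group it was 0.0104, 0.0171 and 0.0279 without oligospermic arrays 1, 2 and 3, and 0.0241, 0.0292 and 0.0202 without t(1;14) arrays 1, 2 and 3. Of the nerve and glia markers, the neurofilament gene NEFL was well above background on all 3 t(1;14) arrays, on 1 of 3 control arrays and on no oligospermic array with its main probe. It entered the fit through the t(1;14) arrays, so that neither its size nor its test is given. SOX10, which marks Schwann cells, was not retained. The part of nerve RNA in the UCHL1 signal was not tested.

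GFRA1, the binding subunit of the GDNF receptor, read between 1.29 and 1.71 on the 9 arrays and was not well above background on any of them, so no fold change is given. SALL4, a zinc finger factor of pluripotent and undifferentiated germ cells, read 5.96, 6.44 and 5.52 in control, 6.36, 6.50 and 6.59 in oligospermic and 6.14, 6.09 and 6.21 in t(1;14) arrays with its main probe. The control arrays spread over more than the range of the t(1;14) arrays, which in turn lay below the 3 oligospermic arrays. The t(1;14) group differed from control by 0.17 (95% interval -0.31 to 0.64, adjusted p = 0.521 in limma), and from the oligospermic group by -0.34 (adjusted p = 0.190). The oligospermic mean was 0.51 above control (SE 0.21, unadjusted p = 0.0394, adjusted p = 0.348). The other SALL4 sequence, on 2 spots, was not well above background on any array.

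ID4, an inhibitor of helix-loop-helix factors that is read most strongly in stem spermatogonia, was measured by 4 probes. Its main probe read 9.13, 8.45 and 8.40 in control, 9.01, 9.02 and 8.84 in oligospermic and 9.15, 9.07 and 9.26 in t(1;14) arrays. Control array 1 lay among the oligospermic and t(1;14) arrays, and control arrays 2 and 3 lay below all of them. The difference of 0.51 between t(1;14) and control (SE 0.19, 95% interval 0.07 to 0.94) had an unadjusted p of 0.0286 and an adjusted p of 0.0522 in limma, and it was 0.74 (adjusted p = 0.00134) without control array 1. The other 3 ID4 probes differed from control by 0.17 to 0.35 in the t(1;14) group and by 0.05 to 0.32 in the oligospermic group, and none of them passed the test.

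**Figure D1:**
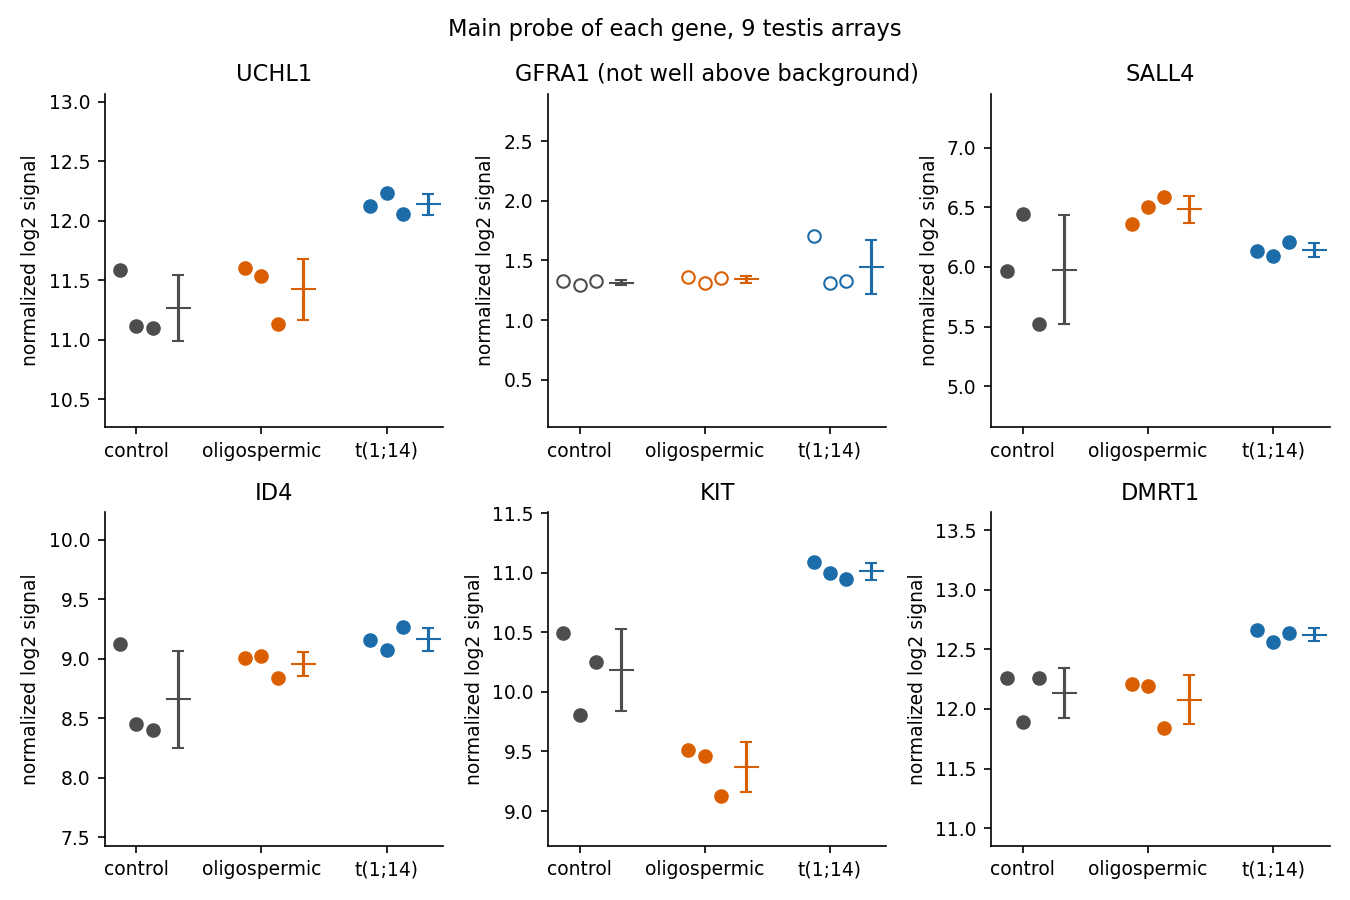
Normalized log2 signal of the main probe of UCHL1, GFRA1, SALL4, ID4, KIT and DMRT1 on each of the 9 testis arrays (filled points; open points are not well above background), with the group mean and SD of the 3 arrays beside them; all panels span the same number of log2 units. The t(1;14) arrays lie above the other 6 for UCHL1, KIT and DMRT1, and the oligospermic arrays lie below the other 6 for KIT.

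KIT, the receptor of stem cell factor and the marker of differentiating spermatogonia, differed most among the listed genes in the comparisons with the oligospermic arrays, with the oligospermic testis low, the control testis between and the t(1;14) testis high. Its main probe read 10.49, 9.81 and 10.25 in control arrays, 9.52, 9.46 and 9.13 in oligospermic arrays and 11.09, 10.99 and 10.95 in t(1;14) arrays. No array of one group entered the range of another, and the group means were 10.18 ± 0.35, 9.37 ± 0.21 and 11.01 ± 0.07 (SD). The signal was 3.12-fold higher in the t(1;14) than in the oligospermic testis (log2 difference 1.64, SE 0.18, 95% interval 1.22 to 2.07, adjusted p = 0.000141 in limma). Within slides 1, 2 and 3 this difference was 1.48, 1.49 and 1.96.

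All 4 KIT probes passed the test between the t(1;14) and oligospermic groups, with log2 differences of 1.19 to 1.64 and adjusted p-values of 0.000141 to 0.00389. On each of them the 3 t(1;14) arrays lay above the 3 oligospermic arrays, which held in that direction for 40.2% of all 41105 probes tested. The probes 3 and 4, which share most of their sequence, are dim, at 4.18 to 5.85 on the control and oligospermic arrays, but were well above background on all 9 arrays.

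Against control the 2 groups gave KIT values on opposite sides, and these comparisons share the control arrays. The t(1;14) group was 0.83 above control with the main probe (SE 0.18, 1.78-fold, adjusted p = 0.00556 in limma), at 0.50, 1.14 and 0.84 on slides 1, 2 and 3. Probes 2, 3 and 4 differed by 0.66, 0.37 and 0.36, with adjusted p-values of 0.0158, 0.246 and 0.172, so that 1 of 4 probes passed. The mean of the 4 probes differed by 0.55 (adjusted p = 0.0429), which missed the limit, and the adjusted p of the main probe was 0.0122 when only the 6 arrays of both groups were fitted. Leaving out control array 2 or 3, oligospermic array 2, or t(1;14) array 1, 2 or 3 gave adjusted p-values of 0.0105, 0.0131, 0.0101, 0.0217, 0.0171 and 0.0166.

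The oligospermic group was below control by 0.82 with the main KIT probe (95% interval of the difference -1.24 to -0.39, unadjusted p = 0.00201), which did not pass after adjustment (adjusted p = 0.0954 in limma). The other 3 probes differed by -0.83 to -0.90, with adjusted p-values of 0.0831 to 0.202. All 4 probes were lower on every oligospermic array than on every control array, which held for 7.66% of all probes. Within slides the main probe differed by -0.98, -0.35 and -1.12.

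**Figure D2:**
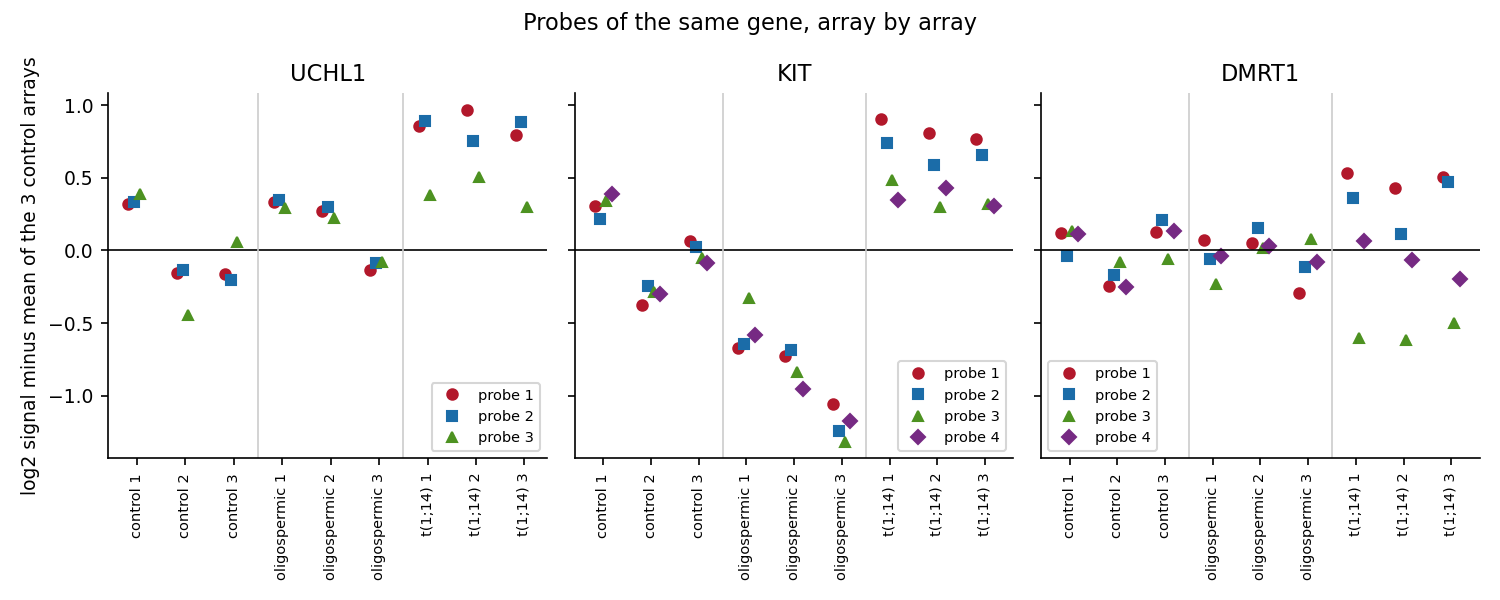
Log2 signal of each retained probe of UCHL1, KIT and DMRT1 on the 9 arrays, minus the mean of the same probe on the 3 control arrays; symbols stand for probes and each column for 1 array. The 4 KIT probes are all negative on the oligospermic arrays and positive on the t(1;14) arrays, UCHL1 probe 3 lies lower than probes 1 and 2 on the t(1;14) arrays, and DMRT1 probes 1 and 3 lie on opposite sides of 0 there.

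Leydig cells, which make testosterone and also carry KIT, read more strongly in the t(1;14) biopsies. Of 7 retained Leydig cell markers, 6 were higher in the t(1;14) testis than in control, with a median log2 difference of 2.39, and none was lower, against 20.0% and 18.5% of all probes. Their summed log2 signal, which includes saturated INSL3 spots on 1 oligospermic and 2 t(1;14) arrays, was 13.08 to 13.16 in control, 12.75 to 13.17 in oligospermic and 14.10 to 14.20 in t(1;14) arrays. Between the oligospermic and control groups, where KIT read lower, none of the 7 passed the test (limma), and their differences ran from -0.38 to 0.94. The mast cell markers MS4A2 and FCER1A were not retained. The part of Leydig or mast cell RNA in the KIT signal was not tested.

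DMRT1 probes disagreed. Probe 1, the brightest, read 12.26, 11.89 and 12.26 in control, 12.21, 12.19 and 11.84 in oligospermic and 12.67, 12.56 and 12.64 in t(1;14) arrays. The t(1;14) arrays lay above the other 6, but the difference of 0.49 from control had an adjusted p of 0.0213 in limma and that of 0.54 from the oligospermic group one of 0.0123, and neither passed. Probe 3 read 9.06, 8.85 and 8.87 in control, 8.70, 8.94 and 9.0 in oligospermic and 8.32, 8.31 and 8.42 in t(1;14) arrays. With this probe the t(1;14) arrays were the lowest, by 0.57 against control (log2 difference -0.57, adjusted p = 0.00375) and by 0.53 against the oligospermic group (log2 difference -0.53, adjusted p = 0.00505), and both passed. Probe 2 differed from control by 0.31 (adjusted p = 0.103) and probe 4 by -0.07 (adjusted p = 0.694). No direction is therefore given for DMRT1. Between the oligospermic and control groups the 4 probes differed by -0.06 to -0.01, with adjusted p-values of 0.930 to 0.993.

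Counted together, the listed genes showed no change of the size that the study's methods ask for, namely a log2 fold change of 2 or more in either direction with an adjusted p no higher than 0.01. Of the 14 probes, 12 of 4 genes passed the filter on dim probes (UCHL1, KIT, SALL4 and ID4). In limma none of the 4 genes was called at that threshold between t(1;14) and control, against 5.82% of all 41105 probes tested, or between t(1;14) and oligospermic (6.53%), or between oligospermic and control (0.112%). With the fold limit lowered to 1 on the log2 scale, KIT was called between t(1;14) and oligospermic (23.4% of all probes, 10.2% in the higher direction), and no gene in the comparisons of the t(1;14) group (20.5%) and the oligospermic group (0.221%) with control. With the adjusted p alone, UCHL1 and KIT passed between t(1;14) and control (38.5% of all probes, 20.0% in the higher direction) and between t(1;14) and oligospermic (42.7%, 22.8% in the higher direction), and none between oligospermic and control (0.224%). At an unadjusted p under 0.05, the genes numbered 3, 2 and 2 of 4 in the comparisons of t(1;14) with control, oligospermic with control and t(1;14) with oligospermic, against 59.9%, 13.0% and 63.8% of all probes.

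Read against the either-direction shares of 38.5% and 42.7%, 2 of 4 genes is near the background of the t(1;14) comparisons. By probe, 3 of 12 passed against control and 5 of 12 against oligospermic, all higher. In that direction the shares of all probes were 20.0% and 22.8%. All retained probes together had a median log2 difference of 0.13 between t(1;14) and control, and relative to it the main probes of UCHL1 and KIT were 0.74 and 0.69 higher. The median over the main probes of the 4 genes was 0.67 for t(1;14) against control, 0.23 for oligospermic against control and 0.46 for t(1;14) against oligospermic. Groups that did not overlap made up 61.6%, 15.5% and 70.4% of all probes in these 3 comparisons.

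**Figure D3:**
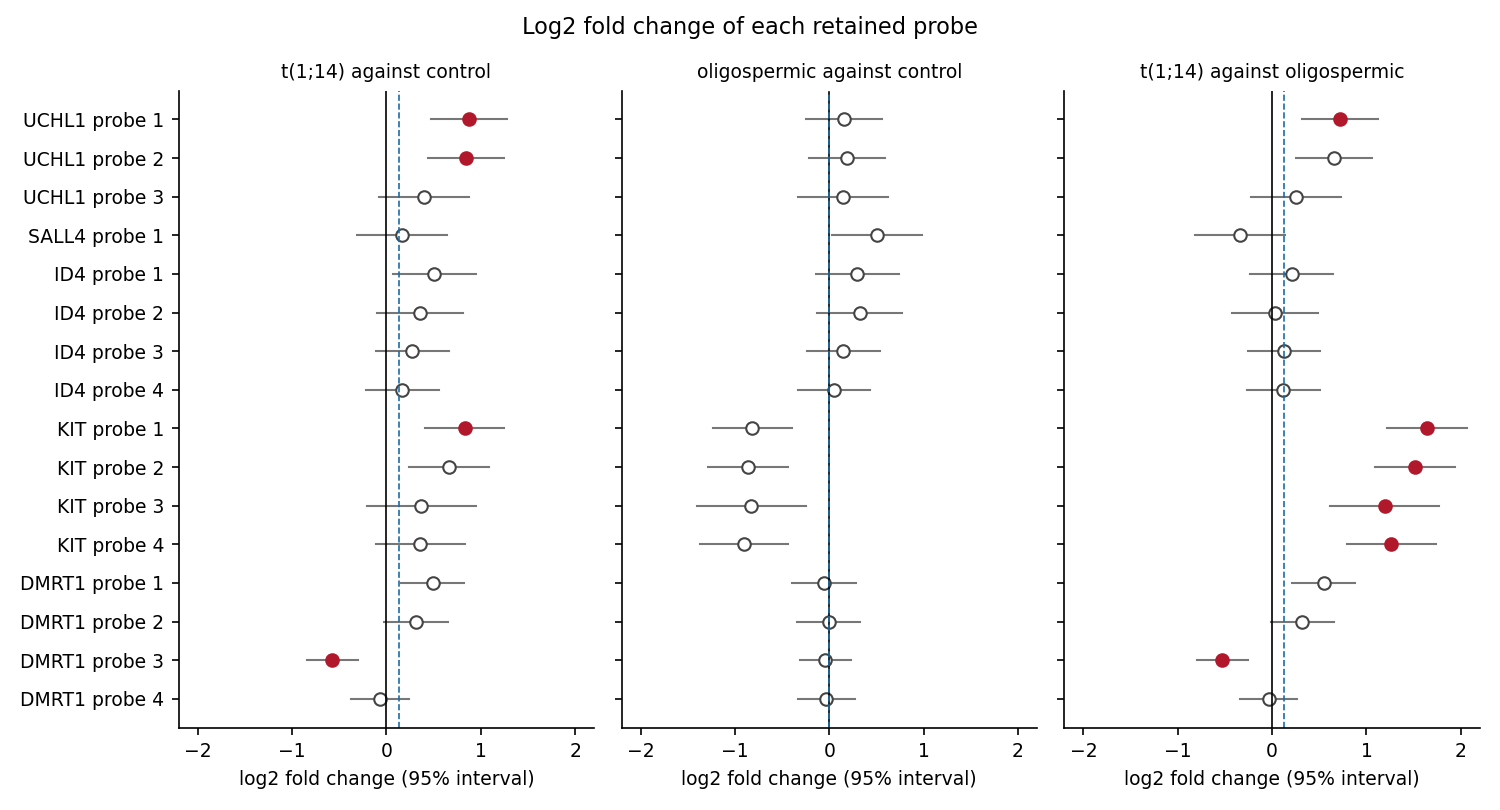
Log2 fold change of each retained probe of UCHL1, SALL4, ID4, KIT and DMRT1 in the 3 comparisons, with its 95% interval; filled points have an adjusted p of at most 0.01, and the dashed line is the median of all 41105 retained probes. All KIT probes are filled between t(1;14) and oligospermic, no probe is filled between oligospermic and control, and DMRT1 probe 3 is filled on the negative side.

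The genes whose pattern over the 9 arrays was most like that of KIT were found by the root mean square difference of the profiles after each was centred on its mean, over 5569 named genes. They were CCK, which encodes the peptide cholecystokinin (0.095 log2 units), PAM, an enzyme that amidates peptide hormones (0.129), and DAB2, an endocytic adaptor (0.160). CCK averaged 12.15 ± 0.29 in control, 11.18 ± 0.30 in oligospermic and 12.85 ± 0.13 in t(1;14) arrays (SD). PAM and DAB2 had the same order, with the t(1;14) testis 1.83 and 1.49 above the oligospermic testis. None of this says that the genes share a function.

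Other genes of the undifferentiated state, 13 retained of 28 listed, had a median log2 difference of 0.56 between t(1;14) and control, against 0.13 for all probes. Of these, 5 passed the test, all higher (20.0% of all probes), and none reached a log2 fold change of 1. They are named here after their values were seen. The integrin subunit ITGB1 was 0.96 higher (adjusted p = 0.00376), FOXO1, a transcription factor needed for stem cell upkeep, 0.78 (adjusted p = 0.000801), EGR4 0.64, the phosphatase DUSP6 0.64 and TAF4B 0.56. The adhesion molecule EPCAM, which is read in many epithelia as well, differed the other way without overlap (log2 difference -0.79, probes from -1.27 to -0.21), but its adjusted p of 0.0166 missed the limit. The FOXO1 probes ran from -0.42 to 0.78, so its direction rests on the probe chosen. Without t(1;14) array 1, 2 or 3, the 5 genes became 2, 1 and 1, and without control array 3 there were 4 higher and 1 lower. No gene of this list passed between oligospermic and control, where its median was 0.01. EGR4 read 0.58 higher there without overlap (adjusted p = 0.0902 in limma). Between t(1;14) and oligospermic EGR4 differed by 0.06 (adjusted p = 0.689).

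Among genes of differentiation and meiotic entry, 7 retained of 16 listed, 2 passed as higher and 3 as lower in the t(1;14) testis. Of all probes, 20.0% were higher and 18.5% lower. The median of the list was -0.35. Those under a log2 fold change of 1 were named after their values were seen, here and in the lists below. The lower genes were TEX15, which is needed for meiotic recombination and transposon silencing (log2 difference -1.51, adjusted p = 3.71e-05), SPO11, which makes the meiotic DNA breaks (-1.03, adjusted p = 0.00306), and DDX4, the germ cell helicase (-0.91). HORMAD1, a protein of the meiotic chromosome axis, and TEX101 were 0.97 and 0.83 higher. SPO11 also read lower in the oligospermic testis than in control, with its main probe (log2 difference -2.14, adjusted p = 0.00328) and with the other as well (-1.25), whereas its 2 probes differed in sign between t(1;14) and control (-1.03 and 0.73). The lower genes numbered 2 without control array 3, or t(1;14) array 1 or 2, and 4 without control array 2. SOHLH1 and DAZL were not analysed here.

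Of the niche signals, 6 retained of 14 listed, 1 counted as higher (WNT5A) and 1 as lower (NRG3). Of all probes, 20.0% were higher and 18.5% lower. WNT5A, a ligand of the non-canonical WNT pathway, averaged 6.19 on the t(1;14) arrays and was not well above background on any control or oligospermic array, so that it passed the filter through the t(1;14) arrays alone. Its test is therefore not given. Its lower bounds set the dim arrays to the lowest signal that was well above background on each. They were 5.99-fold higher than control and 5.45-fold higher than the oligospermic group. NRG3, a neuregulin, was lower than control (adjusted p = 8.66e-05), but only 1 of its 3 t(1;14) arrays was well above background, so that the size of the difference is not given. The lower genes of the list numbered 2 without control array 1 or oligospermic array 1. KITLG, the ligand of KIT, had a probe that did not pass the filter, and GDNF was not analysed here.

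Within the retinoic acid pathway, 12 retained of 20 listed, 3 genes passed as higher and 4 as lower in the t(1;14) testis, against 20.0% and 18.5% of all probes. Among the higher genes, the retinol dehydrogenase RDH10 and the receptor RARG were 0.81 and 0.52 above control. The lower genes were the receptors RXRG (log2 difference -1.68, adjusted p = 0.000182) and RARA (-1.03, adjusted p = 0.00121, and -0.29 after normexp background correction), the enzyme LRAT, which stores retinol as esters (-1.53, adjusted p = 0.000105), and STRA6, the retinol importer (-0.84). Probes of RXRG, RDH10 and RARG differed in sign. The higher genes numbered 1 without control array 2 or without any one of the t(1;14) arrays, 2 without control array 3 or oligospermic array 2, and the lower genes 4 without any one array. STRA6 also read lower in the oligospermic testis than in control with its main probe (log2 difference -1.26, adjusted p = 0.00374), while its 3 probes ran from -1.26 to -0.06. CYP26B1 was not analysed here.

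**Figure D4:**
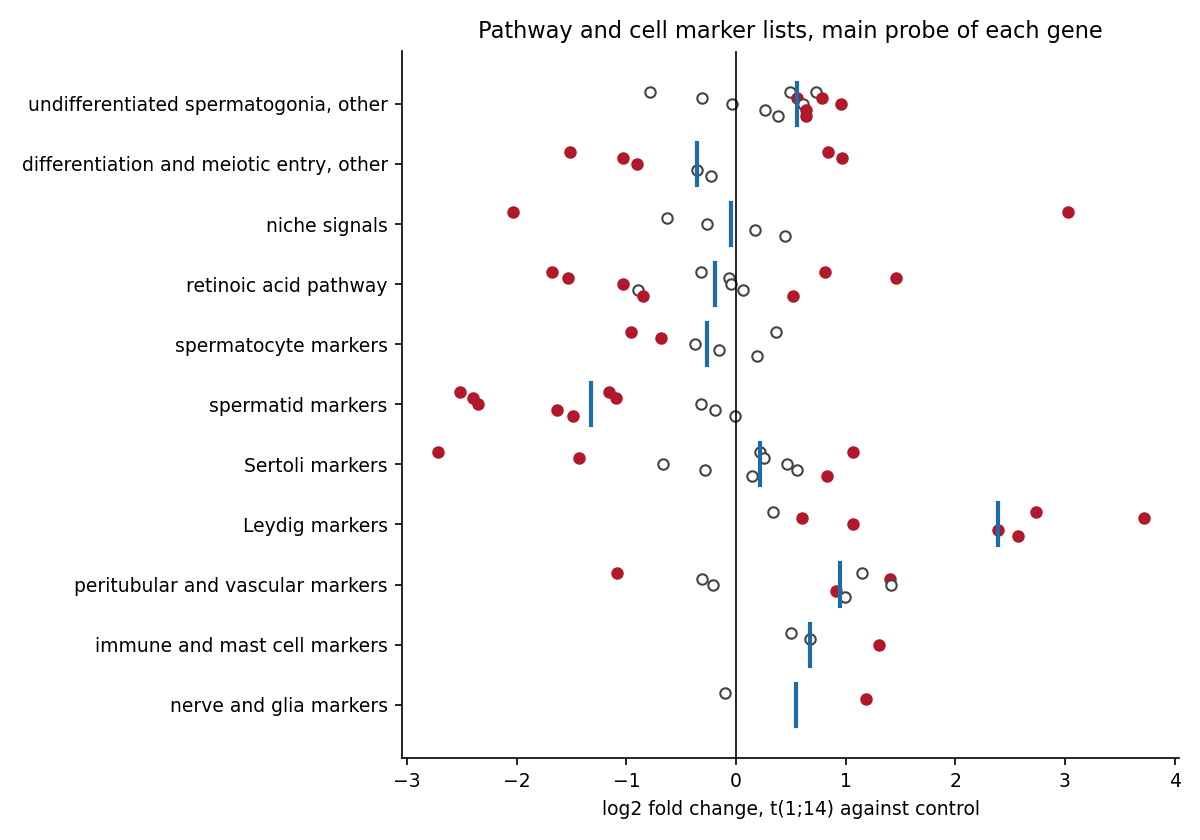
Log2 fold change between t(1;14) and control of every retained gene of the pathway and cell marker lists (main probe), 1 list per row; filled points have an adjusted p of at most 0.01, the vertical bar is the median of the list, and the points of TNP1, TNP2, PRM1, PRM2 and INSL3 include saturated spots. The Leydig cell markers lie highest, with a median of 2.39, the spermatid markers lowest, with a median of -1.32, and the other genes of the undifferentiated state have a median of 0.56. WNT5A, NEFL and NRG3 were well above background on no more than 1 of 3 arrays in 1 of the groups. Their plotted sizes are not used, nor is the fill of WNT5A and NEFL.

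Spermatid markers read lower in the same t(1;14) arrays in which UCHL1 and KIT read higher, and spermatocyte markers were mixed. Of 10 retained spermatid markers, 7 were lower and none higher, against 18.5% and 20.0% of all probes, with a median of -1.32. TNP2, which packs DNA in the spermatid nucleus, differed by -1.09 (adjusted p = 8.53e-05), a size that may be understated, since the spot was saturated on 1 of 3 control arrays. TNP1, of the same role, was saturated on all 3 control and 1 of 3 t(1;14) arrays, so no difference is given. PRM1 and PRM2 were also saturated on all control arrays, and none of the 3 genes saturated there passed the test. The summed log2 signal of the list, saturated spots included, was 15.42 to 15.54 in control, 15.42 to 15.51 in oligospermic and 14.66 to 14.67 in t(1;14) arrays. Of 6 spermatocyte markers, 2 were lower (18.5% of all probes), the glycolytic enzyme PGK2 (log2 difference -0.95, adjusted p = 0.000621) and the meiotic cyclin CCNA1 (-0.68, adjusted p = 0.00247), while PIWIL2 and LDHC differed by -0.37 and -0.15 and TDRD1 and PIWIL1 by 0.36 and 0.19, none of them past the test. Without t(1;14) array 1 or 3, 1 gene was lower. Their summed signal was 13.61 to 13.82, 13.89 to 14.01 and 13.14 to 13.25. The bearing of a smaller share of later germ cells on the UCHL1 and KIT signals was not tested.

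Among the Leydig cell markers, STAR was 3.72 higher in the t(1;14) testis (adjusted p = 1.5e-05), while the main INSL3 probe, saturated on 2 of 3 t(1;14) arrays, gave a difference of 0.34 that did not pass and may be understated, and the INSL3 probes ran from 0.34 to 1.92. The 11 retained Sertoli cell markers were mixed, with 2 higher and 2 lower (against 20.0% and 18.5% of all probes), a median of 0.22 and a summed signal of 10.50 to 11.34 in control, 10.49 to 11.08 in oligospermic and 11.31 to 11.51 in t(1;14) arrays. CTSL and INHA were 0.83 and 1.06 higher (adjusted p of 0.00461 and 0.000174), TF and WT1 were lower (log2 differences -2.72 and -1.43), and CLDN11 differed by 0.56 (adjusted p = 0.156). The TF probes ran from -2.72 to 0.98. Without control array 2 or 3, or any one t(1;14) array, 1 Sertoli cell marker was higher. Of 8 peritubular and vascular markers, 2 were higher and 1 was lower, against 20.0% and 18.5% of all probes. The endothelial genes PECAM1 and VWF were higher and CNN1 of smooth muscle was lower. ACTA2 differed by -0.21 (adjusted p = 0.550) and DES by -0.31 (adjusted p = 0.289). The higher genes numbered 4 without control array 3 and 1 without t(1;14) array 2 or 3. Of 3 retained immune markers 1 was higher, CD14 (20.0% of all probes), while CD163 differed by 0.50 (adjusted p = 0.118) and AIF1 by 0.68 (adjusted p = 0.0751). No marker of these 7 lists passed between oligospermic and control in limma.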

How the data were processed

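The authors labelled testis RNA with cyanine 3, hybridized it to a customized 60K porcine Agilent array and read the spots with Feature Extraction 11.5.1.1. The deposited scanner files hold each spot's processed signal, an intensity that was already background-corrected. The authors also deposited a table of log2 values for 38759 probes, made per the methods by log transformation, quantile normalization and removal of weak spots, which correlated with the log2 processed signal of the same arrays at 0.9998 or more. Genome build of the annotation: not given in the sources used here. The methods name a pig reference build to which the probe sequences were aligned. The resulting positions were not available here, so no coordinates are printed.

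Here log2 processed signal of the 60889 non-control probes was quantile normalized over the 9 arrays. The 41105 probes well above background, with no outlier flag, on 2 or 3 of the 3 arrays in 1 or more groups were fitted in 1 limma model (limma 3.58.1, R 4.3.3) of the 3 group means, with Benjamini-Hochberg adjustment over these probes. The member genes and all lists were chosen with earlier results of these data known. Members had all their probes described; from each pathway list the genes called at an adjusted p of 0.01 and a log2 fold change of 1 between t(1;14) and control were named, beside GDNF, KITLG, RARA, CYP26B1, SOHLH1 and DAZL, and from each marker list the 2 of highest mean signal. A summed log2 signal is the log2 of the mean linear signal of a list. The most similar genes were the 3 with the smallest difference for each member called at a log2 fold change of 1. A few genes of these lists are counted but not reported here by name. The script was tested on simulated data.

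Each of the 3 slides held 1 array of each group. Replicate numbers of the labels coincide with slides for control and oligospermic arrays. Their same-numbered arrays deviated together (r = 0.478, 0.136 and 0.101), and slide and replicate number cannot be told apart there. For t(1;14) against control the numbers did not pair the arrays (r = -0.285, -0.194 and 0.139). By slide, the same comparison gave r = 0.339, 0.109 and 0.119 on slides 1, 2 and 3. Alternatives were another scaling, background correction, filter, the deposited log2 table, the slide and the replicate number as blocks, an intensity trend, the 6 arrays of a comparison, other thresholds and leaving out each array. The number of arrays limits the precision.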

Additional observations from a re-analysis of the deposited data

Results flagged for a closer look

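The shift from control differed between the t(1;14) and oligospermic boars for 3 genes by the test of their arrays against each other in limma, in which the control arrays enter the estimate of the spread but not the difference. KIT differed with all 4 probes, by 1.64, 1.52, 1.19 and 1.26 on the log2 scale with probes 1 to 4 (adjusted p of 0.000141, 0.000222, 0.00389 and 0.00103), and its shifts from control had opposite signs. UCHL1 differed by 0.71 with probe 1 (adjusted p = 0.00805), with both shifts above 0. DMRT1 differed by -0.53 with probe 3 (adjusted p = 0.00505), and by 0.54 with probe 1 (adjusted p = 0.0123), which did not pass. Of all 41105 probes, 42.7% passed this test. Single arrays far from their group were not tested, since each group holds 3 arrays.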

How the results depend on the processing

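No listed gene was called at the methods' threshold in any comparison under any processing tried, and DMRT1 added none. With the adjusted p alone the counts were 2, 0 and 2 for t(1;14) against control, oligospermic against control and t(1;14) against oligospermic, and at a log2 fold change of 1 they were 0, 0 and 1. The KIT difference between t(1;14) and oligospermic passed in all 22 alternatives that were tested, at 1.19 to 1.71. KIT against control lost its call in 12 of 22 (0.36 to 0.98), among them 75th percentile scaling (0.72, adjusted p = 0.0113). UCHL1 lost it in 6 of 21 against control (0.40 to 1.03) and in 12 of 21 against oligospermic (0.25 to 0.80), where it gave 0.54 under 75th percentile scaling, 0.58 after normexp and 0.71 (adjusted p = 0.0134) without the filter. ID4 against control passed only without control array 1. DMRT1 probe 1 passed against control after normexp (0.46) and against oligospermic in 5 alternatives.

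Signs turned for SALL4 against control (-0.059 to 0.40 with an array left out) and DMRT1 in the oligospermic comparison (-0.18 to 0.062 with an array left out). With probes 3 and 4, DMRT1 was -0.57 and -0.067 against control and -0.53 and -0.036 against oligospermic. The causes were not tested. The replicate block changed no call of a listed gene (KIT, t(1;14) against oligospermic, adjusted p = 0.000557; UCHL1 against control, 0.00435), and neither did the slide block. Over all probes, calls numbered 2392, 46 and 2683. They were 1006, 15 and 1088 after normexp, and for oligospermic against control 29 with 6 arrays, 27 with the filter in every group, 30 with the replicate block and 33 to 126 with an array left out (96 without control array 1, 126 without control array 2). At a log2 fold change of 1 they were 8422, 91 and 9621, and with the adjusted p alone 15819, 92 and 17553. The member differences from the deposited log2 table lay within 0.0078 of those given. CTSL lost its call under 75th percentile scaling (0.67, adjusted p = 0.0101).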
